A study of Mus musculus with 20 samples.

Results

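The comparison described here is high-fat diet against chow in the hearts labelled M, and it covers 9 of the 20 samples of the series. All samples came from hearts of wild-type C57BL/6 mice aged 12 weeks, and messenger RNA was selected by its polyA tail before sequencing. The 9 samples are the 5 high-fat hearts PA M1 to PA M5 and the chow hearts M1, M2, M3 and M5, chosen by their labels and by how they were counted. Sample labels carry the names Chow and PA, and the design text speaks of chow and of a high-fat diet, which leaves PA for the high-fat hearts. Chow M4 was counted per gene on another scale and was left out. The other 10 samples are F hearts on the same diets. The labels do not state the length or composition of the diet, the hour at which hearts were taken, or that each sample came from a separate animal, so p-values here rest on a spread between samples that may be partly technical.

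The heart burns mostly fatty acids. Lipoprotein lipase frees them from circulating triglyceride, Cd36 and fatty acid binding proteins bring them into the cardiomyocyte, the carnitine shuttle moves them into mitochondria, and beta-oxidation breaks them down. Fatty acids also activate PPAR-alpha, a nuclear receptor that switches on genes of this route, among them Pdk4, a kinase that shuts pyruvate dehydrogenase and so spares glucose. Secretory and membrane proteins are folded in the endoplasmic reticulum (ER), where chaperones such as Hspa5 (BiP) are raised by the unfolded protein response when folding demand grows.

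Library totals ran from 57805110 to 85794067 counts, summed over exon pieces, and levels are given in CPM, counts scaled to a common library size with TMM factors. Of 17299 genes tested with edgeR's quasi-likelihood test and Benjamini-Hochberg adjustment, 572 (3.31%) were called at an adjusted p under 0.05. On high fat, 304 genes (1.76%) rose and 268 (1.55%) fell. Every high-fat library stood above every chow library for 670 genes (3.87%), and below for 666 (3.85%). The median log2 change over all genes tested was 0.005. The first principal component, with 18.8% of the variance, parted the diets, at -19.16 to -10.76 in chow and 12.54 to 13.86 on high fat. The second, with 17.1%, set apart chow M2, PA M3 and PA M5, which carried the highest levels of immediate early genes: Egr1 was at 43.3, 27.1 and 17.4 CPM there and at 5.70 to 8.96 CPM in the other 6. Without these 3 libraries 227 genes were called, of which 199 were among the 572. All 572 kept their direction in that fit. Without chow M2 alone 319 genes were called, and without chow M5 alone 356.

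**Figure D1:**
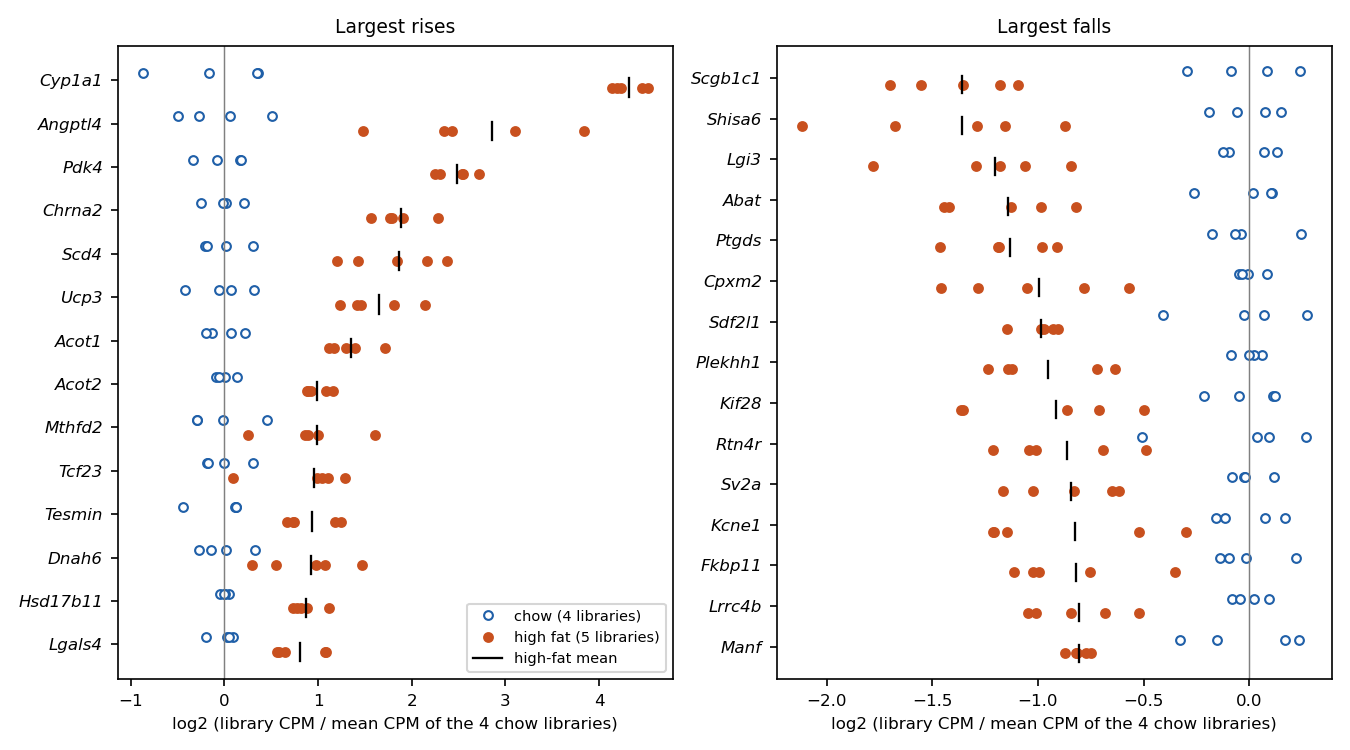
The 15 largest rises (left, 1 of them not shown) and the 15 largest falls (right) of called genes averaging 1 CPM or more, as the log2 ratio of each library's CPM to the mean of the 4 chow libraries; open circles are chow, filled circles high fat, and the bar is the high-fat mean. Cyp1a1, Angptl4 and Pdk4 stand farthest to the right, and Mthfd2, Tcf23, Dnah6 and Rtn4r show overlap between the diets.

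Of 28 tested genes of the unfolded protein response and ER chaperones 12 fell. Without the 3 libraries high in immediate early genes 6 fell, and 7 without chow M5. In a fit over 19 libraries of both sexes 3 fell, and 6 in a fit over 17, which leaves out PA F4 and PA F5. Promoters of several carry the ER stress response element, the DNA sequence through which the unfolded protein response acts (spelled CCAAT, then 9 bases of any kind, then CCACG, and searched on both strands). In the 250 bases before the start site, from RefSeq's GRCm38.p6 tables, the element was found in 17 of 11910 tested genes with a promoter (0.143%). It was found in 9 of the 23 list members with a promoter (39.1%), and in 5 of the 9 with a promoter among the members that fell. Canx, Creld2, Derl3 and Dnajc3 hold it too and were not called. The list was drawn up from genes of this response, so its share does not speak to the diet. A match is a description of the letters in this window and not of binding. The 4 promoters below are shown because their genes fell and hold the element, which stands in capitals. Pdia6 also holds the element and fell by 0.26 (SE 0.06; edgeR adjusted p = 0.0242), and is not shown; its call ended without any 1 of chow M1, M2 and M5 or PA M4 (adjusted p up to 0.0838). The 4 were chosen after the values were seen, and are written 5′ to 3′ on the gene's strand.
Hspa5 (chr2:34771840-34772089, plus strand): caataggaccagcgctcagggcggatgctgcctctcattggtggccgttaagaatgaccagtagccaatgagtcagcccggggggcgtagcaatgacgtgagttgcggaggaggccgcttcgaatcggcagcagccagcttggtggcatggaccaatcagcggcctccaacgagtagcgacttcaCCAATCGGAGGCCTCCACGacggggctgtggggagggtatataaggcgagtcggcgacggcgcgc
Syvn1 (chr19:6046326-6046575, plus strand): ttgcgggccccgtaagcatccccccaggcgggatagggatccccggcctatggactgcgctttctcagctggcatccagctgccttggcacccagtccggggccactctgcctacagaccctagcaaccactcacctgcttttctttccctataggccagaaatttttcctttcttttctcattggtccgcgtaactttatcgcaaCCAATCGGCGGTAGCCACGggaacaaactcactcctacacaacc
Calr (chr8:84846932-84847181, minus strand): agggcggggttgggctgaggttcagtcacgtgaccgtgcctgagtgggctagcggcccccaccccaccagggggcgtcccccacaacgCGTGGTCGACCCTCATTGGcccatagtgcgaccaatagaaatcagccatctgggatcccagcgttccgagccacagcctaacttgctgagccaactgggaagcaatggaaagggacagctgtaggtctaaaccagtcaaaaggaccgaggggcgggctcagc
Hsp90b1 (chr10:86705445-86705694, minus strand): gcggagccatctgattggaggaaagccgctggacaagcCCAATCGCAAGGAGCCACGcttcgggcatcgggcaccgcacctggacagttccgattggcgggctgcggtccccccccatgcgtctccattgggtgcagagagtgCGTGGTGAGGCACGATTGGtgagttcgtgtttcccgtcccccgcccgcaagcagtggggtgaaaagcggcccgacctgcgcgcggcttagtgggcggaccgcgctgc
The element begins 65 bases before the start site in Hspa5, 44 in Syvn1 and 162 in Calr, where it lies on the other strand. Hsp90b1 holds it at 212 and again, on the other strand, at 107 bases before the start.

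Among the lists examined, the targets of PPAR-alpha held the largest share of genes that rose. Of 40 listed targets, 35 passed the filter on low counts, and 30 of these rose and 0 fell, against 304 and 268 of all 17299 genes. The median log2 change of the 35 was 0.35, and all 35 lay above 0. The count of rises ran from 26 to 31 when each library was left out in turn and was 29 without the 3 libraries high in immediate early genes. In a fit over 19 libraries of both sexes it was 20, and 29 in the fit over 17, without PA F4 and PA F5. The element bound by PPAR with its partner, searched on both strands as a direct repeat of AGGNCA with 1 base between, was found in the 250 bases before the start in 34 of 11910 tested genes with a promoter (0.285%) and in 0 of the 27 targets with one. This says only that these letters are not in this window.

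Pdk4 (chr6:5483351-5496309, minus strand in GRCm38), the pyruvate dehydrogenase kinase, stood at 210, 298, 301 and 252 CPM in the chow hearts M1, M2, M3 and M5. In PA M1 to PA M5 it stood at 1749, 1544, 1306, 1263 and 1535 CPM. The lowest high-fat library was thus far above the highest chow library, and the log2 change was 2.48 ± 0.12 (SE; edgeR adjusted p = 2.227e-08). All 15 exon pieces of the gene with a mean of at least 10 counts were higher on high fat. Its relatives did not pass the test: Pdk1 changed by 0.13 on the log2 scale (edgeR adjusted p = 0.114), Pdk2 by -0.09 (0.126, and 0.019 by DESeq2) and Pdk3 by -0.01 (0.988). Pdha1, the catalytic subunit that these kinases phosphorylate, held 1105 to 1136 CPM on chow and 1097 to 1139 CPM on high fat.

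Angptl4, a secreted inhibitor of lipoprotein lipase, stood at 3.79, 2.57, 5.16 and 3.03 CPM on chow and at 52.1, 31.1, 10.1, 18.5 and 19.5 CPM on high fat. The diets did not overlap, but the high-fat hearts spread widely, with PA M1 highest and PA M3 lowest, and the log2 change of 2.85 carried an SE of 0.39 (edgeR adjusted p = 0.000948). Lpl itself, the lipase that Angptl4 inhibits, fell by 0.27 on the log2 scale, from 3900 to 4474 CPM on chow to 3310 to 3765 CPM on high fat (edgeR adjusted p = 0.00485). The call for Lpl ended without the 3 libraries high in immediate early genes (adjusted p = 0.0896). Gpihbp1, which anchors the lipase to the capillary wall, did not pass the test (log2 change 0.07 ± 0.08).

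Ucp3, a mitochondrial carrier protein raised by fatty acids, stood at 33.6, 39.9, 30.8 and 23.9 CPM on chow and at 142, 112, 75.2, 87.8 and 85.3 CPM on high fat. Every high-fat library was above every chow library, for a log2 change of 1.65 ± 0.17 (edgeR adjusted p = 0.00016). Ucp2, its neighbour in the family, rose by 0.69 ± 0.05, from 58.9 to 71.1 CPM up to 98.7 to 105 CPM. Acot1 and Acot2, thioesterases that release free fatty acids from acyl-CoA, rose by 1.36 ± 0.12 and 0.99 ± 0.07 on the log2 scale. These genes are close copies, so reads may have been split between them and each value is uncertain.

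**Figure D2:**
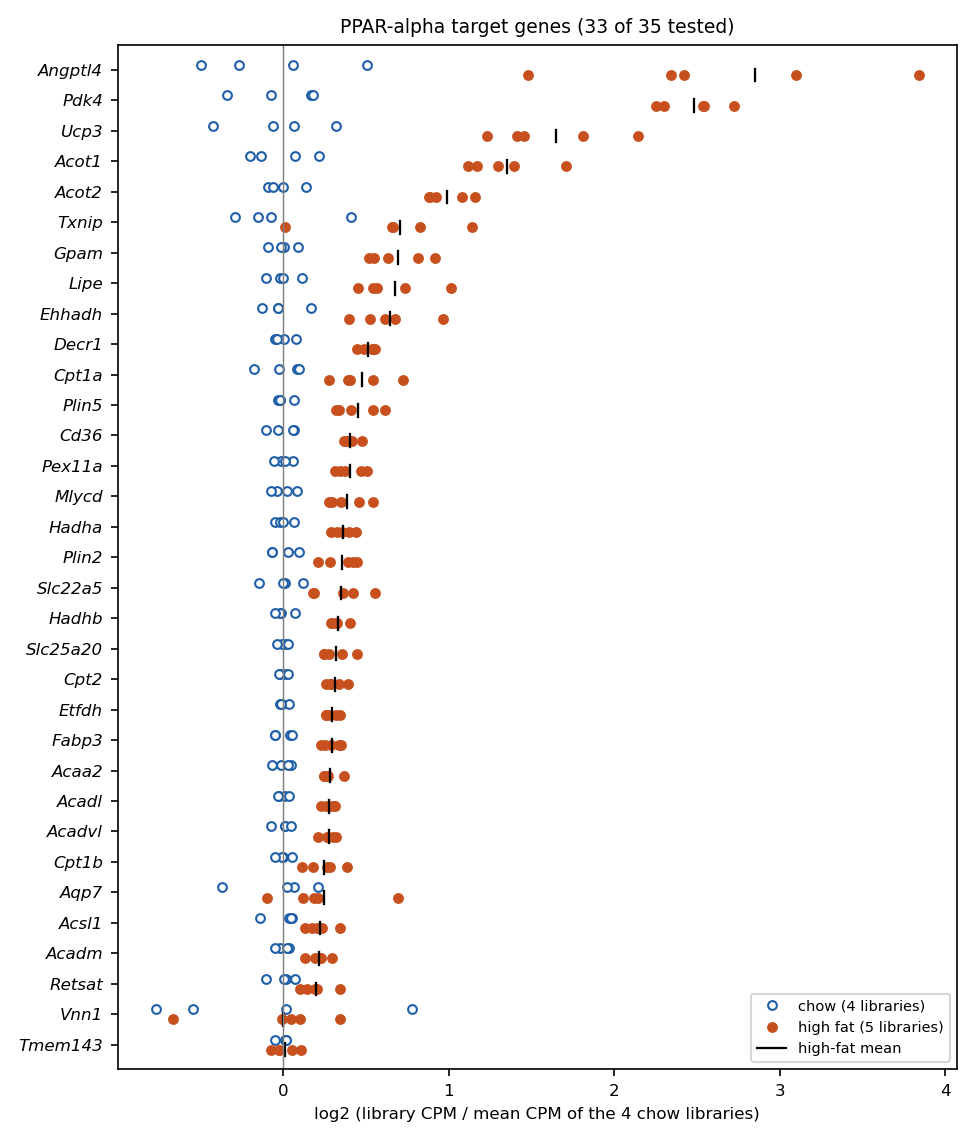
PPAR-alpha targets, 33 of the 35 tested, ordered by log2 change; each point is 1 library's log2 ratio to the mean of the 4 chow libraries, open for chow and filled for high fat, with a bar at the high-fat mean. The members called higher lie to the right of 0, while Vnn1 and Tmem143 straddle it.

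Of 18 tested genes of fatty acid uptake and lipoprotein lipase, 5 rose and 1, Lpl, fell, with a median log2 change of 0.07. In the fit over 19 libraries 3 rose, and 5 in that over 17. Cd36, the fatty acid translocase, went from 2321, 2173, 2316 and 2064 CPM on chow to 3089, 2961, 2875, 2860 and 2906 CPM on high fat, a log2 change of 0.41 ± 0.04 (edgeR adjusted p = 0.000113). Fabp3, the fatty acid binding protein of heart muscle, rose by 0.29 ± 0.04, and Slc27a1, an acyl-CoA synthetase that aids uptake, rose by 0.40 ± 0.07. Fabp4, the form found in capillary endothelium, rose by 0.39 ± 0.05.

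In the carnitine shuttle, 6 of 11 tested genes rose and 0 fell. Without chow M5 3 rises were left, with 2 in the fit over 19 libraries and 6 in that over 17. Cpt1a, the liver form of the enzyme that joins fatty acids to carnitine, rose by 0.48 ± 0.08 on the log2 scale, from 43.7 to 52.7 CPM up to 59.6 to 81.4 CPM. Cpt1b, the muscle form, was 0.25 ± 0.05 higher (edgeR adjusted p = 0.0164), and its call ended without chow M2 or without chow M5 (adjusted p up to 0.0571). The carrier Slc25a20 rose by 0.32 ± 0.04 and Cpt2, on the inner membrane, by 0.31 ± 0.04.

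Inside mitochondria, 12 of 22 tested genes of fatty acid oxidation rose and 1 fell, with a median log2 change of 0.17. The rises were small and even. Acadvl, Acadl and Acadm, the dehydrogenases for very long, long and medium chains, rose by 0.28 ± 0.04, 0.28 ± 0.03 and 0.21 ± 0.04. Hadha and Hadhb, the subunits of the trifunctional protein, rose by 0.36 ± 0.04 and 0.33 ± 0.04, and Decr1, needed for unsaturated fatty acids, by 0.52 ± 0.04. Hadha stood at 2948, 3009, 3181 and 3038 CPM on chow and at 4131, 4012, 3896, 3820 and 3722 CPM on high fat, with no overlap. Echs1, the short-chain hydratase, was the member that fell (log2 change -0.17 ± 0.03, edgeR adjusted p = 0.0138), and its call ended without the 3 libraries high in immediate early genes (adjusted p = 0.198). Without those libraries 9 members rose and 0 fell. In the fit over 19 libraries 6 rose, and 11 in that over 17.

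Peroxisomes shorten the fatty acids that mitochondria take poorly. Of 20 tested genes of that route 6 rose and 0 fell, with 2 rises in the fit over 19 libraries and 6 in that over 17. Ehhadh, its bifunctional enzyme, rose by 0.65 ± 0.10 on the log2 scale, Ech1 by 0.41 ± 0.04, Pex11a, which drives peroxisome division, by 0.40 ± 0.06, and catalase (Cat) by 0.32 ± 0.04.

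Of 19 tested genes of lipolysis and droplets 6 rose and 1 fell, and in the fit over 19 libraries 2 rose and 0 fell. Over 17 libraries 5 rose and 1 fell. Plin5, which docks droplets to mitochondria, stood at 111, 112, 118 and 111 CPM on chow and at 173, 165, 143, 150 and 141 CPM on high fat (log2 change 0.45 ± 0.06; edgeR adjusted p = 0.000529). Plin2 rose by 0.35 ± 0.05, the triglyceride lipase Pnpla2 by 0.25 ± 0.03 and the diglyceride lipase Lipe by 0.68 ± 0.10. Gpam, the first step of triglyceride synthesis, rose by 0.70 ± 0.07, from 143 to 162 CPM up to 218 to 288 CPM.

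White fat attached to the heart would carry several of these genes, so its markers were read beside them. Of 17 white adipocyte markers 11 were tested. Pnpla2, Lipe and Agpat2 rose and Fasn fell, and their summed level was 460 to 493 CPM on chow and 553 to 587 CPM on high fat. The defining marker Adipoq stood at 0.0402 to 0.224 CPM on chow and 0.0140 to 0.142 CPM on high fat, and Lep was at 0 in 6 of the 9 libraries. The call of Fasn ended without chow M2 or chow M5 (adjusted p up to 0.0575), and that of Agpat2 without any 1 library other than PA M4 (adjusted p up to 0.127). Plin1 stayed between 0.0643 and 0.309 CPM across all libraries.

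Scd4, the heart-expressed stearoyl-CoA desaturase, rose from 3.61, 3.68, 5.15 and 4.23 CPM on chow to 14.9, 21.6, 18.7, 11.2 and 9.59 CPM on high fat (log2 change 1.87 ± 0.21; edgeR adjusted p = 0.000207). Mlycd, which removes malonyl-CoA, the brake on Cpt1, rose by 0.39 ± 0.06. Of 21 tested genes of fatty acid synthesis and malonyl-CoA 3 rose and 3 fell. With any 1 library left out 0 to 2 fell, 0 of them without chow M2 and 1 without any 1 of chow M1, chow M5 and PA M3. Without the 3 libraries high in immediate early genes 0 fell. The fit over 19 libraries gave 0 falls and that over 17 gave 3. Reads of Scd4 may be shared with its near copies of the desaturase family.

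The 5 high-fat hearts differed in how far these genes had moved. Of the 30 targets that rose, PA M1 held the highest of the 5 high-fat values in 25. Over all 304 genes that rose PA M1 was also most often highest, in 124, against 34 to 51 for each other high-fat library. The lowest value was held by PA M5 in 13 and by PA M3 in 11. The median log2 ratio of the 30 to the chow mean was 0.51 in PA M1, 0.42 in PA M2, 0.35 in PA M3, 0.36 in PA M4 and 0.35 in PA M5. PA M3 and PA M5 are also the high-fat libraries high in immediate early genes, and the part of that in the spread was not tested.

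The receptor and its partners did not pass the test. Ppara stood at 33.4 to 42.6 CPM on chow and 31.1 to 37.0 CPM on high fat (log2 change -0.13 ± 0.07, edgeR adjusted p = 0.4). Rxra, its dimer partner, changed by 0.01 ± 0.04, and Ppargc1a, its coactivator, by 0.08 ± 0.12, neither past the test. Of 21 tested regulators 1 rose and 2 fell. The one that rose was Pparg, the form known from fat cells, from 10.6 to 11.4 CPM up to 12.7 to 15.3 CPM (log2 change 0.35 ± 0.07, edgeR adjusted p = 0.0129), and its call ended without the 3 libraries high in immediate early genes (adjusted p = 0.12).

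**Figure D3:**
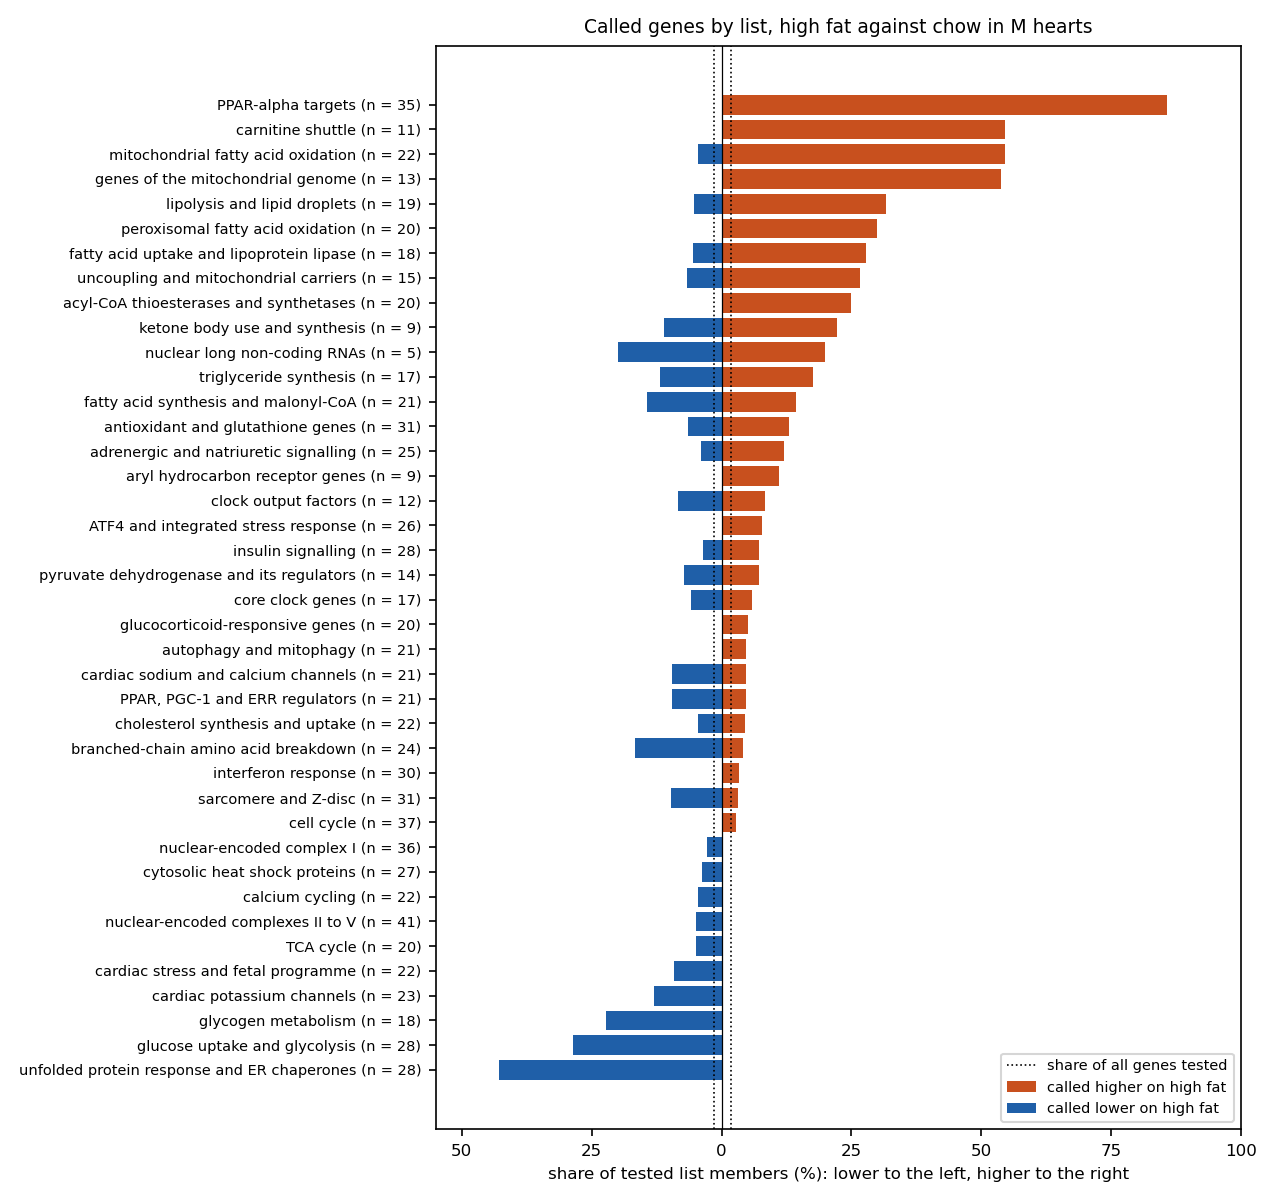
Share of tested members of each gene list that was called higher (right) or lower (left) on high fat, for the lists with at least 1 called gene; n is the number of members tested and the dotted lines mark the shares of all genes tested, 1.76% higher and 1.55% lower. PPAR-alpha targets reach farthest to the right, with 30 of 35, and ER chaperone genes farthest to the left, with 12 of 28.

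Of 28 tested genes of glucose uptake and glycolysis 8 fell and 0 rose, and the median log2 change was -0.10. Slc2a4 (GLUT4), the insulin-responsive glucose transporter, stood at 374, 402, 394 and 394 CPM on chow and at 317, 311, 286, 304 and 317 CPM on high fat. The groups did not overlap, and Slc2a4 fell by 0.35 on the log2 scale (SE 0.04; edgeR adjusted p = 0.000206), with all 26 exon pieces with a mean of at least 10 counts lower. Slc2a1 (GLUT1), the basal transporter, stood at 15.2 to 15.6 CPM in the 4 chow hearts and at 8.37 to 11.5 CPM on high fat, and fell by 0.59 (SE 0.09). Hk2, the hexokinase that traps glucose in insulin-responsive muscle, fell by 0.29 (SE 0.04), and Eno3, the muscle enolase, by 0.31 (SE 0.04). The count of falls ran from 6 to 9 when each library was left out. Without the 3 libraries high in immediate early genes 4 genes fell and 1 rose. In the fit over 19 libraries 4 fell, and 8 in that over 17.

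Glycogen genes followed in part. Ppp1r3c, which brings phosphatase to glycogen and favours its synthesis, fell from 89.9 to 98.1 CPM on chow to 58.1 to 74.4 CPM on high fat (log2 change -0.44 ± 0.07; edgeR adjusted p = 0.00236). Of 18 tested glycogen genes 4 fell and 0 rose. Leaving out any 1 of chow M1, M2, M3 and M5, PA M2 or PA M5 left 2.

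Of 9 tested genes of ketone body use and synthesis 2 rose and 1 fell. Acat1 rose by 0.16 (SE 0.035, edgeR adjusted p = 0.0244). Its call ended without chow M1 or without chow M2 (adjusted p up to 0.103). Oxct1, which activates ketone bodies for burning, stood at 1502, 1682, 1613 and 1548 CPM on chow and at 1291, 1208, 1170, 1181 and 1305 CPM on high fat, and fell by 0.37 (SE 0.04; edgeR adjusted p = 0.000333). Bdh1, the preceding enzyme of ketone use, stood at 52.6, 69.2, 57.4 and 61.8 CPM on chow and at 22.8, 59.1, 22.6, 17.1 and 34.98 CPM on high fat. PA M2 lay within the chow range, and Bdh1 did not pass the test (log2 change -0.94 ± 0.26, edgeR adjusted p = 0.0677). It passed without PA M2 (-1.31, adjusted p = 0.000613).

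**Figure D4:**
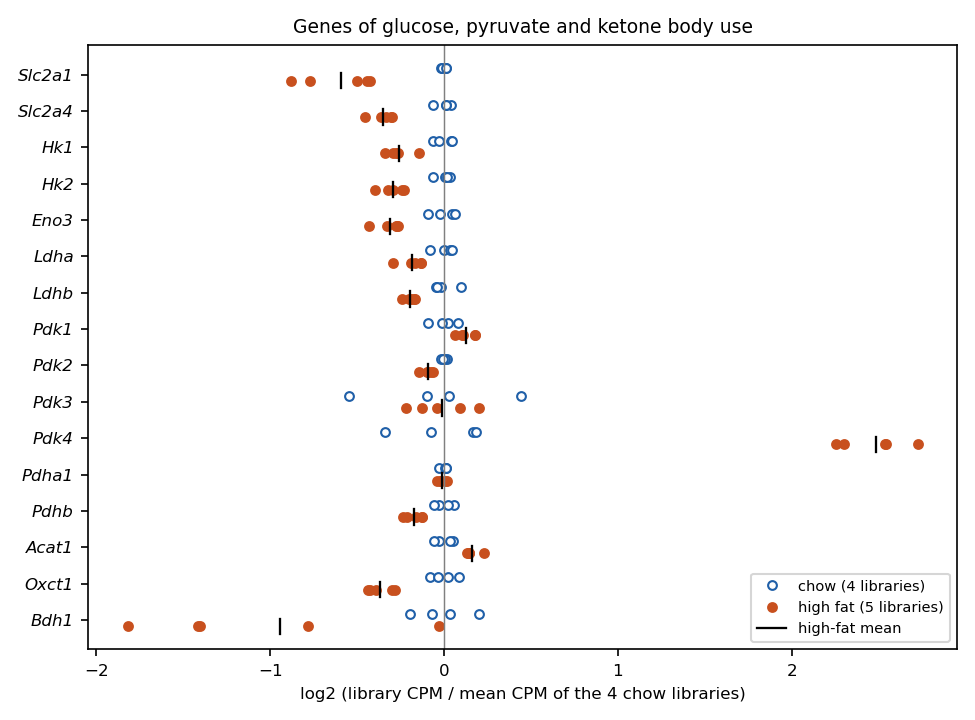
Log2 ratio of each library to the mean of the 4 chow libraries for genes of glucose uptake, glycolysis, pyruvate dehydrogenase and ketone bodies; open circles are chow, filled circles high fat and bars the high-fat mean. Pdk4 lies far to the right of the other genes shown, and for Bdh1 the heart PA M2 falls among the chow hearts.

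Amino acid breakdown held 1 large change. Abat, a transaminase of GABA and of valine-derived carbon, stood at 16.0, 12.4, 15.04 and 15.9 CPM on chow and at 8.41, 6.78, 5.54, 5.44 and 7.49 CPM on high fat, a log2 change of -1.14 ± 0.12 (edgeR adjusted p = 0.000172). Bckdhb, a subunit of the branched-chain dehydrogenase, fell by 0.33 (SE 0.05). Of 24 tested genes of branched-chain amino acid breakdown 4 fell and 1 rose. Without PA M1, 8 fell and 1 rose, and without chow M1 or chow M2, 3 fell and 0 rose.

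Of 28 tested genes of the unfolded protein response and ER chaperones, 12 fell and 0 rose, and the median log2 change was -0.18. Without chow M5, 7 fell, and without chow M3, 15 fell and 1 rose. Without the 3 libraries high in immediate early genes 6 fell, with 3 in a fit over 19 libraries of both sexes and 6 in that over 17. Hspa5, the main ER chaperone, stood at 870, 1010, 784 and 957 CPM on chow and at 644, 670, 627, 630 and 618 CPM on high fat. The high-fat hearts were tightly grouped below a wider chow range, with chow M3 lowest of the chow hearts, and Hspa5 fell by 0.50 on the log2 scale (SE 0.06; edgeR adjusted p = 0.00028). All 20 exon pieces with a mean of at least 10 counts were lower.

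Manf, a secreted ER stress protein, stood at 84.5, 111, 75 and 106 CPM on chow and at 55.0, 56.0, 51.4, 53.2 and 53.4 CPM on high fat, and fell by 0.81 (SE 0.09; edgeR adjusted p = 0.000207). Sdf2l1, a cofactor of Hspa5, fell by 0.98 (SE 0.12), from 4.40 to 7.05 CPM on chow to 2.63 to 3.12 CPM on high fat. The disulphide isomerase Pdia4 fell by 0.48 (SE 0.06), the ubiquitin ligase Syvn1 of ER-associated degradation by 0.44 (SE 0.05) and the chaperone Hyou1 by 0.47 (SE 0.08). In Hspa5 and each of these 5 genes every high-fat library lay below every chow library. Calr, a chaperone of glycoproteins, fell by 0.26 (SE 0.05), and its call ended without the 3 libraries high in immediate early genes (edgeR adjusted p = 0.0749). Hsp90b1 fell by 0.22 (SE 0.05, edgeR adjusted p = 0.0408), and its call ended without any 1 of chow M1, M2 and M5 or PA M1, M2, M4 and M5 (adjusted p up to 0.101).

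The transcription factor Xbp1, which drives many of these genes, was at 66.7, 78.7, 60.1 and 69.9 CPM on chow and 49.7, 58.2, 52.3, 51.9 and 58.4 CPM on high fat. Xbp1 fell by 0.35 (SE 0.07; edgeR adjusted p = 0.015), a call that ended without chow M5 (adjusted p = 0.0501) and without the 3 libraries high in immediate early genes (adjusted p = 0.0732). In another branch of the stress response, of 26 tested genes of ATF4 and the integrated stress response 2 rose and 0 fell. In all, 17 of the 26 lay above 0. Chac1 rose by 0.64 ± 0.13 (edgeR adjusted p = 0.0132), a call that ended without the 3 libraries high in immediate early genes (0.0522). Mthfd2 rose by 0.99 ± 0.23 (edgeR adjusted p = 0.0277) with overlap between the diets. Its call ended without any 1 of chow M1, M3 and M5 or PA M4 (adjusted p up to 0.0849). Atf4 changed by 0.11 ± 0.08 and Ddit3 (CHOP) by -0.10 ± 0.08, neither past the test.

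**Figure D5:**
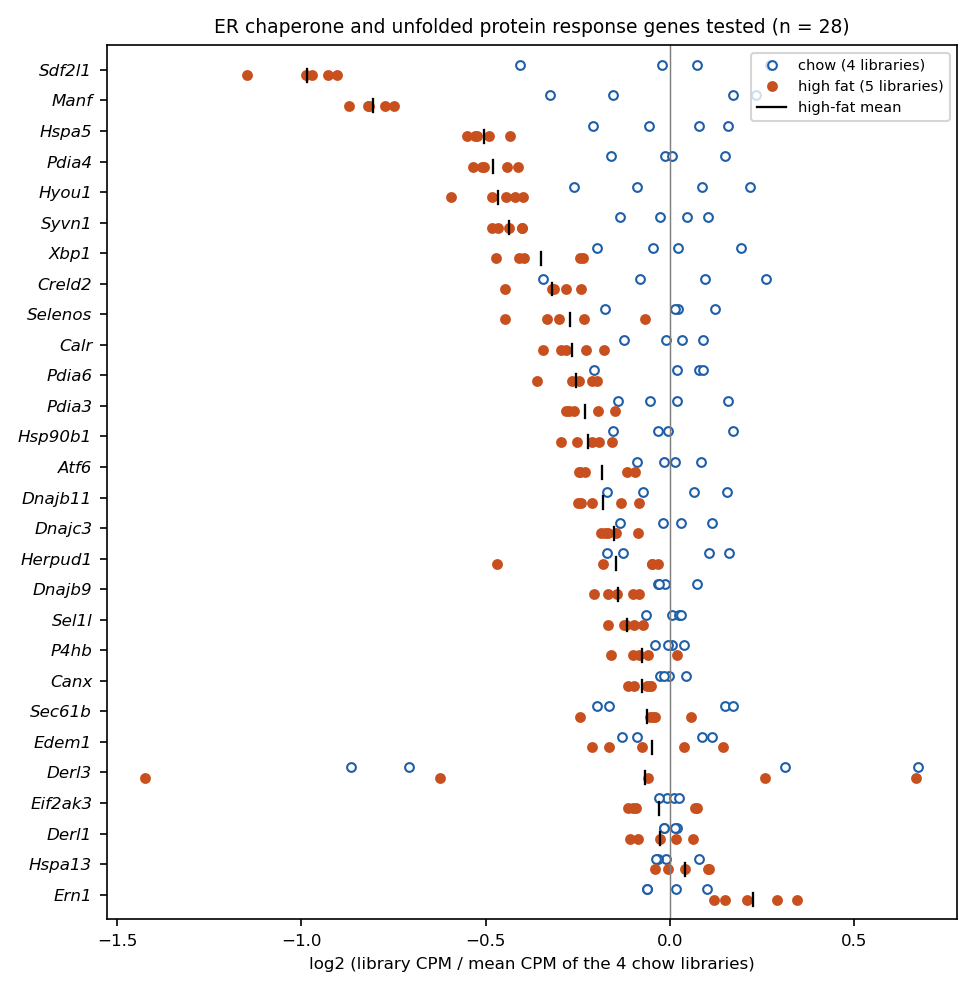
The 28 tested genes of the unfolded protein response and ER chaperones, ordered by log2 change, as each library's log2 ratio to the mean of the 4 chow libraries; open circles are chow, filled circles high fat and bars the high-fat mean. Sdf2l1, Manf, Hspa5, Pdia4, Hyou1 and Syvn1 show high-fat hearts grouped below all chow hearts, and Ern1 lies to the right of 0.

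The largest fold change of the comparison was in Cyp1a1 (chr9:57687928-57703824, plus strand in GRCm38), a cytochrome P450 best known as the readout of the aryl hydrocarbon receptor. It stood at 0.251, 0.248, 0.107 and 0.174 CPM on chow and at 3.68, 4.46, 3.56, 4.29 and 3.42 CPM on high fat. The log2 change was 4.32 ± 0.20 (edgeR adjusted p = 2.227e-08), and all 6 exon pieces with a mean of at least 10 counts were higher. A level of 3 counts in the smallest library equals 0.0519 CPM, so the chow levels rest on few counts. The other listed genes of the receptor did not pass the test: of 9 tested, only Cyp1a1 was called. With Cyp1a1 included, 8 of the 9 lay above 0, at a median log2 change of 0.20. By edgeR 3 of the 9 had an unadjusted p under 0.05. The listed genes summed to 161 to 165 CPM on chow and 167 to 186 CPM on high fat. Cyp1b1 changed by 0.35 ± 0.16 (edgeR adjusted p = 0.264), Ahrr by 0.20 ± 0.19, Tiparp by 0.11 ± 0.09 and Nqo1 by -0.01 ± 0.07. The receptor's core site, TNGCGTG, was not found in the 250 bases before the start of Cyp1a1 and was found in 866 of 11910 promoters (7.27%). Sites farther from the start were not searched, so this describes only the letters in this window.

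Genes of the mitochondrial genome were higher. Of 13 tested 7 rose and 0 fell, with a median log2 change of 0.25 and all 13 above 0. Their share of all counts was 9.49% to 10.8% on chow and 11.6% to 12.1% on high fat. The cytochrome b gene, mt-Cytb, rose by 0.27 ± 0.04 (edgeR adjusted p = 0.00211) and mt-Nd6, a complex I subunit, by 0.41 ± 0.07. Of 36 tested nuclear genes of complex I 1 fell and 0 rose, and of 41 tested nuclear genes of complexes II to V 2 fell and 0 rose. Over all genes tested 1.76% rose and 1.55% fell, so such counts say little in lists of this size. The median log2 change was -0.05 in both nuclear lists, with 4 of the 36 and 5 of the 41 above 0. Without the 3 libraries high in immediate early genes 4 of the 13 rose. In a fit over 19 libraries of both sexes 0 rose by edgeR, and 5 in that over 17.

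Of 22 tested genes of cardiac stress and the fetal programme, 2 fell and 0 rose. Nppb (BNP), released by stretched ventricle, stood at 254, 208, 226 and 211 CPM on chow and at 89.4, 109, 206, 163 and 139 CPM on high fat. Every high-fat library was below every chow library, though PA M3 came close, and Nppb missed the threshold (log2 change -0.67 ± 0.17, edgeR adjusted p = 0.0519). It passed without PA M3 (-0.85, adjusted p = 0.0059) and without the 3 libraries high in immediate early genes (-0.94, adjusted p = 0.0124). Nppa (ANP) stood at 137, 101, 64.7 and 77.1 CPM on chow and at 36.5, 62.2, 55.5, 55.0 and 66.9 CPM on high fat, with overlap at PA M5 (log2 change -0.78 ± 0.19, edgeR adjusted p = 0.0395). Its call ended without any 1 of chow M1, M2 and M5 or PA M1, M2, M3 and M4 (adjusted p up to 0.11). Myh7, the slow myosin of the fetal programme, changed by -0.07 ± 0.09. Of 48 tested extracellular matrix genes 0 were called by edgeR (8 at an unadjusted p under 0.05, and 2 by DESeq2), and Col1a1 changed by 0.05 ± 0.06.

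Ion channel genes showed single changes. Scn4b, a beta subunit of the cardiac sodium channel, stood at 28.3, 25.4, 25.5 and 22.2 CPM on chow and at 44.9, 34.1, 42.1, 47.7 and 44.5 CPM on high fat, a log2 change of 0.75 ± 0.09 (edgeR adjusted p = 0.000306). Adra1a, the alpha-1A adrenergic receptor, rose by 0.58 ± 0.08. Chrna2, a nicotinic receptor subunit, rose from 1.15 to 1.58 CPM up to 4.07 to 6.67 CPM (log2 change 1.88 ± 0.15; edgeR adjusted p = 1.045e-05).

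Several of the largest falls lay outside the metabolic lists. Ptgds, the synthase of prostaglandin D2, stood at 268, 327, 245 and 264 CPM on chow and at 147, 99.9, 121, 140 and 121 CPM on high fat (log2 change -1.13 ± 0.10; edgeR adjusted p = 2.673e-05). Scgb1c1, a secretoglobin, fell by 1.36 (SE 0.14), from 4.39 to 6.36 CPM on chow to 1.66 to 2.52 CPM. Cpxm2, a carboxypeptidase-like secreted protein, fell by 0.997 (SE 0.14), from 26.4 to 29.0 CPM on chow to 9.93 to 18.4 CPM. Shisa6 fell by 1.36 (SE 0.20), Lgi3 by 1.21 (SE 0.16) and Plekhh1 by 0.95 (SE 0.12), all without overlap between the diets. The airway marker Scgb1a1 was at 0 in all 9 libraries. Scgb1c1, Manf, Ucp3, Lipe, Slc2a1, Oxct1, Nppa, Acadvl, Fabp3, Pex11a, Ckm and Txnip each overlap a called gene on the opposite strand that moved the same way. Strand-specific counting is not stated anywhere, so reads in the stretch that a pair shares cannot be told apart. Overlap was judged by the genes' starts and ends, and the exon pieces it covers were not counted.

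Clock genes were read because the hour of sampling is not given. Nr1d2 (REV-ERB beta), a clock repressor, rose by 0.52 ± 0.08, from 37.8 to 45.3 CPM up to 51.8 to 68.3 CPM (edgeR adjusted p = 0.00231). Dbp, a clock output factor, was 0.76 ± 0.16 higher (edgeR adjusted p = 0.0176) with overlap between the diets, and its call ended without chow M2 or without chow M5 (adjusted p up to 0.0665). Arntl (BMAL1) changed by -0.27 ± 0.08, Nr1d1 by 0.25 ± 0.08 and Per2 by 0.02 ± 0.21, none past the test. By DESeq2, Arntl (adjusted p = 0.0267) and Nr1d1 (adjusted p = 0.0422) passed, as they did by edgeR with no filter on low counts (0.0282 and 0.0472). Of 17 tested core clock genes 1 rose and 1 fell. The part of sampling time in other results was not tested.

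Markers of the cell types in the heart were read in the same fit. In whole tissue, fewer cells of a type and less RNA per cell cannot be told apart. Cardiomyocyte markers summed to 109000 to 117000 CPM on chow and 98900 to 106000 CPM on high fat. Of the 12 tested, Actc1, Myl3 and Ckm fell, and 0 fell without the 3 libraries high in immediate early genes. The call of Ckm also ended without chow M1, M2 or M5 (adjusted p up to 0.0746). Endothelial markers summed to 2000 to 2090 CPM on chow and 2160 to 2230 CPM on high fat, with 1 of 15 higher (Fabp4) and 1 lower (Aqp1). Fabp4, also a gene of fatty acid uptake, holds much of that gap, at 364 to 424 CPM on chow and 502 to 519 CPM on high fat. The sum is therefore not read as a shift in endothelial content. Of 14 macrophage markers 0 were called by edgeR (9 at an unadjusted p under 0.05, and 1 by DESeq2), though 13 lay below 0, at a median log2 change of -0.21. Of 30 tested interferon response genes 29 lay above 0 and 1 was called, with 4 called without PA M1 and 0 without any 1 of chow M1, M2, M3 and M5 or PA M2, M3 and M5. The part of these shifts in the other results was not tested.

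The F hearts, which share no sample with the M hearts, gave smaller values for some of the same genes and like or larger values for others. In a fit over 19 libraries, high fat changed Cyp1a1 by 4.31 ± 0.27 on the log2 scale in M hearts and by 2.70 ± 0.23 in F hearts. The F values include PA F4 and PA F5. Pdk4 changed by 2.48 ± 0.19 in M and 1.45 ± 0.17 in F, Ucp3 by 1.65 ± 0.19 and 0.58 ± 0.17, and Angptl4 by 2.85 ± 0.42 and 0.97 ± 0.36. Chow levels also differed, Ucp3 standing at 32.5 ± 6.67 CPM (SD, n = 4) in M hearts and 90.3 ± 16.2 CPM (SD, n = 5) in F hearts. Clock genes differed on chow too. Dbp stood at 8.96 ± 1.5 CPM (SD) in M and 91.9 ± 13.8 CPM in F. Arntl stood at 37.6 ± 2.19 CPM (SD) in M and 11.8 ± 2.37 CPM in F. The hour of sampling is not given for either, and its part in the gaps between M and F was not tested. Syvn1 changed by -0.44 ± 0.06 in M and 0.04 ± 0.06 in F. By contrast, Ucp2 changed by 0.69 ± 0.13 in M and 0.80 ± 0.12 in F, Abat by -1.14 ± 0.17 and -1.30 ± 0.16, Hadha by 0.36 ± 0.08 and 0.37 ± 0.07, and Scn4b by 0.75 ± 0.10 and 0.74 ± 0.10. Tested as a difference, 0 of 18056 genes passed by edgeR (0.0%), and 0 passed without PA F4 and PA F5. Over the 19 libraries 1838 had an unadjusted p under 0.05 (10.2%) and DESeq2 called 49. The smallest adjusted p among the genes named here was that of Syvn1 (edgeR, 0.095), with 0.156 for Cyp1a1, 0.207 for Pdk4, 0.215 for Ucp3 and 0.31 for Angptl4. These data therefore do not show that the diet acted differently in M and F hearts, nor that it acted alike.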

How the data were processed

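The deposited values are whole counts, 1 file per sample. The authors' files give counts for 425461 exon pieces, per the file headers, and a read spanning several pieces counts in each; the file of chow M4 holds 49315 genes instead. GRCm39, DESeq2 1.32.0 and Salmon 1.5.1 appear in the submitters' processing notes, but the genes' coordinates match GENCODE vM21 of GRCm38 for 90.7% of genes, so GRCm38 is used. An aligner and strand setting are not given in the sources used here.

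Pieces were summed per gene. Of 33309 pieces that carry several gene IDs, 27653 were given to the 1 gene whose exons they overlap. Exon positions for this came from the file of chow M4, whose counts were not used. The other 5656 pieces (1.45% to 1.56% of counts) were left out. The 9 libraries entered edgeR 4.0.16 (TMM, its expression filter, quasi-likelihood F-test, Benjamini-Hochberg over 17299 genes), with calls at an adjusted p under 0.05. SE is of the log2 change. On simulated counts it recovered 70% of genes changed 1.5-fold and 75% changed 2-fold, with 15 unchanged genes called. The difference between M and F hearts was an interaction over 19 libraries.

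Named genes are the 15 largest rises and falls with a mean of at least 1 CPM, up to 4 called members per list by p, and fixed genes. Others, named for their role, and the printed promoters were chosen after values were seen. The members and the 45 pathway and 17 marker lists were chosen with earlier results of these data known. Alternatives were DESeq2 1.42.0 and its size factors, other filters, 19 or 17 libraries, a replicate block, the largest exon piece, and libraries left out. Of the genes that could be named, 3 are not reported here.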

Additional observations from a re-analysis of the deposited data

Results flagged for a closer look

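For 169 named genes, the highest or lowest library of each diet group was compared with its nearest neighbour by Dixon's ratio. Of 338 groups, 15 held a library that stood apart, a share below the 5% or so that chance gives. The libraries below are therefore listed as a description and not read as findings. On chow, M5 stood apart for Ucp2 (71.1 CPM, high), Tesmin (1.47 CPM, low), Acsl1 (1400 CPM, low) and Cox6a2 (930 CPM, high). Chow M3 was high for Plin5 (118 CPM) and Me1 (158 CPM), chow M1 was low for Aqp1 (189 CPM), and chow M2 was high for Atf4 (45.8 CPM) and low for Nqo1 (27.6 CPM). On high fat, PA M1 was high for Acaa2 (1280 CPM) and Acat1 (888 CPM), and PA M5 for Ucp2 (105 CPM) and Cyp1b1 (5.04 CPM). PA M2 was high for Adra1a (28.4 CPM), and PA M4 was low for Agpat2 (37.7 CPM).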

How the results depend on the processing

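Against 572 calls, DESeq2 gave 1163, the fit of all 4 groups 138, the replicate block 227 and the fit without the 3 libraries high in immediate early genes, chosen after the data were seen, 227. Calls ran from 319 to 542 with 1 library left out, and all 572 genes kept their direction in every fit that tested them. DESeq2's size factors gave 569, no filter 749, a stricter filter 662, 17 libraries 474 and the largest exon piece 656. The 17 libraries leave out PA F4 and PA F5, which an earlier account of these data reports as standing apart. The fit of all 4 groups holds both, and their part in its 138 calls was not tested. Of 148 calls over the pathway lists, 44 were left with all 4 groups, 80 with the block and 78 without the 3 libraries, and 102 to 142 with 1 left out. Of 142 called named genes, 55, 91 and 80 were called in those fits, and 103 to 127 with 1 library left out. The difference between M and F hearts gave 0 calls, 49 by DESeq2, and 0 to 5 with 1 library left out, the 5 coming without PA F1. The cause of these shifts was not tested. Same-numbered chow and high-fat libraries did not vary together (correlations of -0.23 to 0.06). A pairing that moved few genes could be missed by such correlations, so pairing by number is neither shown nor excluded. Genes near 3 counts, 0.0519 CPM in the smallest library, cannot be told from 0. Precision rests on 4 and 5 libraries.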

Other observations

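Tesmin and Lgals4 were among the largest rises, and each lies beside a fatty acid oxidation gene on the same strand. Tesmin, a gene best known from testis, rose by 0.94 ± 0.16 on the log2 scale, from 1.47 to 2.19 CPM on chow to 3.18 to 4.76 CPM on high fat (edgeR adjusted p = 0.00473). It starts 3123 bases from Cpt1a, which rose by 0.48 ± 0.08. Lgals4, a galectin best known from gut epithelium, rose by 0.81 ± 0.11, from 71.4 to 87.1 CPM on chow to 120 to 173 CPM on high fat (edgeR adjusted p = 0.000899). It lies 1606 bases from Ech1, which rose by 0.41 ± 0.04. Over all 9241 pairs of tested genes within 5000 bases of each other, 40 had both genes called, and in all 40 they moved the same way. Of the 40 pairs, 30 overlap on opposite strands, so that reads in the stretch they share cannot be told apart here, and 10 are separated.

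Armc2, an axonemal protein gene, held 37.3 to 39.0 CPM in the 4 chow hearts and 22.6 to 27.99 CPM on high fat, and fell by 0.59 (SE 0.06; edgeR adjusted p = 0.000177). Hsd17b11, a short-chain dehydrogenase of lipid droplets, stood at 22.3 to 23.8 CPM on chow and 38.3 to 50 CPM on high fat, a log2 change of 0.87 ± 0.07 (edgeR adjusted p = 1.045e-05). Slc25a34, a mitochondrial carrier, rose by 0.46 ± 0.04. Txnip, a PPAR-alpha target and glucose-responsive gene, stood at 330, 312, 461 and 284 CPM on chow and at 765, 616, 349, 548 and 550 CPM on high fat. The diets overlapped at PA M3 and chow M3 (log2 change 0.71 ± 0.18; edgeR adjusted p = 0.0466), and the call ended without any 1 of chow M1, M2 and M5 or PA M1, M2, M4 and M5 (adjusted p up to 0.141).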
